A study of Homo sapiens with 6 samples.

Results

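The 44 genes described here encode ligands, secreted antagonists, latent TGF-β binding proteins, receptors, SMADs and direct targets of TGF-β and BMP signalling. They were chosen by name for these known roles, though with earlier results of these data known, out of 35639 genes in the deposited table. They fall into 5 TGF-β and activin ligands, 6 BMP and GDF ligands, 5 secreted antagonists, 4 latent TGF-β binding proteins, 5 type I receptors, 4 type II receptors, 2 co-receptors, 6 receptor-regulated and common SMADs, 2 inhibitory SMADs and 5 direct targets. Bulk RNA-seq of poly(A) RNA was performed on hFOB 1.19, an immortalised human fetal osteoblastic line kept at 34 °C, the temperature at which it proliferates. All lines had been transduced with a lentiviral vector carrying a dTomato reporter and sorted for dTomato as a bulk population, not as clones. The vector was empty (EV) or coded for HA-tagged histone H3.3, as wild type (H3.3-WT, here WT) or with the G34W substitution (H3.3-G34W, here G34W), from a Drosophila cDNA added to the cells' own H3.3 genes. Each line gave 2 libraries, and the comparison asks which genes differ between cells given the mutant and the wild-type histone.

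Groups follow the library titles. A genotype entry in the labels contradicts the titles by swapping these lines, so every sign between G34W and WT holds for the libraries as titled and would turn if that entry were followed. The column of EV replicate 1 was listed at 0 for 28688 genes, among them 34 of the 44, and was left out, so EV is a single library, replicate 2. In the 5 libraries used, 14517 to 16397 genes were listed at 0 and none of the 44 was. The values are a normalised signal, kallisto's estimated counts scaled mainly per library. They summed to between 38821144 and 48024590 per library, and the number of reads behind them is unknown. Where 5 values are given for a gene below, they stand in the order EV replicate 2, WT replicates 1 and 2, and G34W replicates 1 and 2. By the study's methods, cells were taken in duplicate and replicates are in general wells of the same experiment; the labels do not say more for these libraries, so p-values measure only the spread between them and not between separate transductions.

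Of 10 osteoblast markers, 9 were above 0 in all 5 libraries, and their summed signal was 220528, 203156, 214900, 192710 and 262402. COL1A2, a chain of type I collagen, was the most abundant of them. The late markers were low or absent: SP7 read 1.43 to 6.03, BGLAP (osteocalcin) 4.08 to 44.9, and IBSP (bone sialoprotein) was listed at 0 in 4 of the 5 libraries. G34W replicate 1 stood apart in another marker list. Its summed signal over 12 pluripotent stem cell markers was 56035, against 1097 in EV, 963 and 1023 in WT and 943 in G34W replicate 2. All 12 were at least 2-fold above each of the other libraries there, and POU5F1 was the most abundant, with 19441 against 41.6 to 75.4. WT replicate 2 stood apart in a different way, as the highest of the 5 libraries for 30.8% of the 16259 genes tested.

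TGF-β ligands are secreted in a latent complex that latent TGF-β binding proteins tether to the matrix, and BMPs are held back by secreted antagonists. Active ligands bring together type II and type I receptor kinases, which phosphorylate SMAD2 and SMAD3 for TGF-β and activins or SMAD1, SMAD5 and SMAD9 for BMPs; these join SMAD4 in the nucleus, and SMAD6 and SMAD7 feed back as inhibitors. In bone, TGF-β is stored in the matrix, released when osteoclasts resorb it and drives the recruitment of osteoprogenitors, while BMPs drive osteoblast differentiation.

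Across the 44 genes, the libraries of G34W and WT differed by less than the test could separate. Genes with a mean signal of at least 10 over the 5 libraries were tested, which kept 43 of the 44; BMP2, with 1.87, 3.89, 9.47, 14.3 and 1.14, was below this mean. With limma on log2(signal + 1), no gene of the 43 had an adjusted p under 0.05 between G34W and WT, and neither did any of the 16259 genes (0%). At an unadjusted p under 0.05 there was 1 of the 43, LTBP1, against 439 of all genes (2.7%). The median difference over the 43 was -0.20 on the log2 scale, with 17 higher and 26 lower in G34W, and over all genes tested it was -0.06, with 7010 higher and 9248 lower. Against the mean of the WT libraries, the median of the 43 was -0.29 in G34W replicate 1 and -0.05 in replicate 2; over all genes the same medians were -0.17 and 0.04. Over the members still tested, the median was -0.05 without G34W replicate 1, which also drops BMP7, and -0.05 without WT replicate 2, where those over all genes were 0.04 and 0.01. In bulk RNA, fewer cells of a type and less RNA per cell cannot be told apart.

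**Figure D1:**
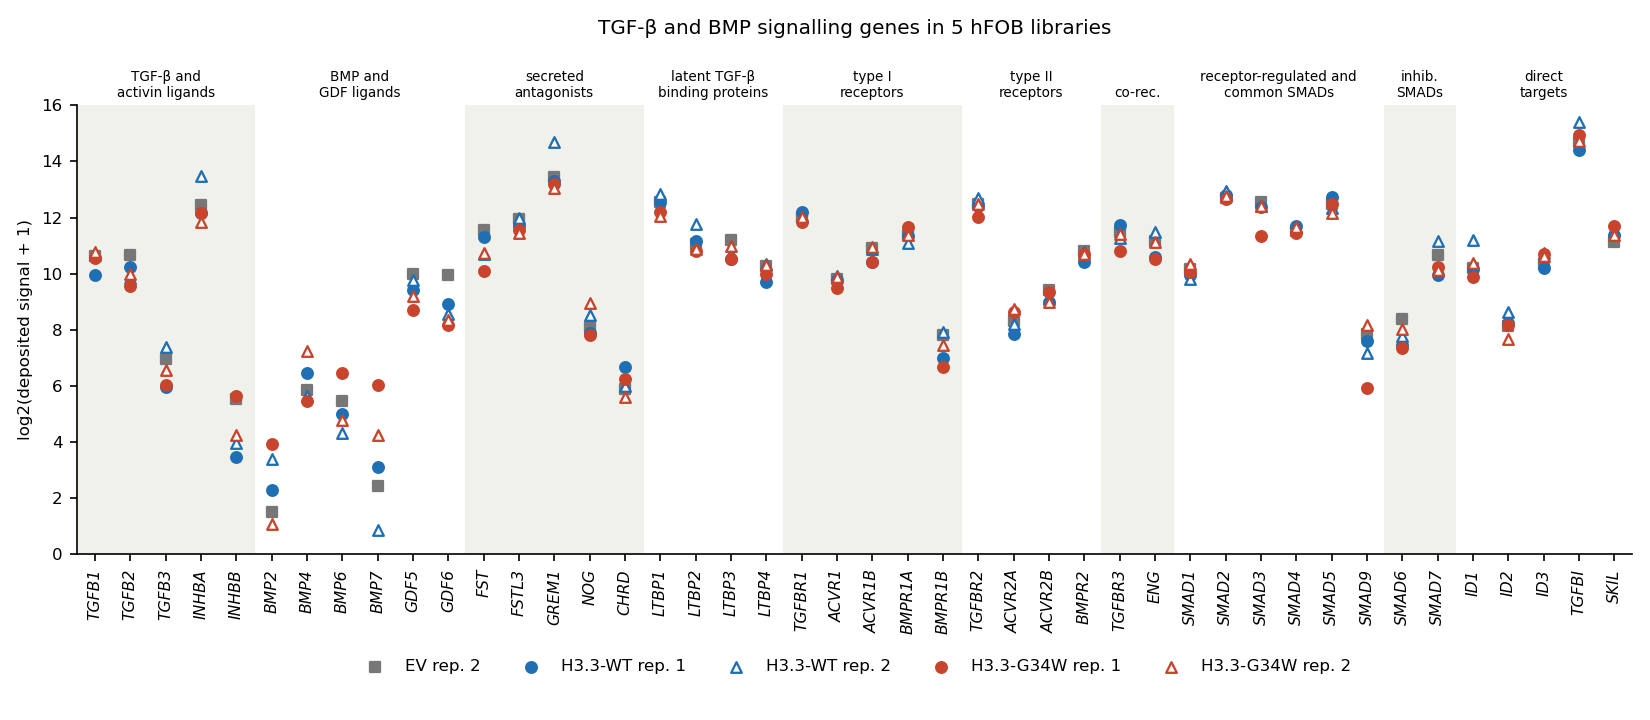
Signal of each of the 44 genes in 5 libraries, grouped by role; the vertical axis is log2(deposited signal + 1) and each point is a single library. TGFBI lies highest and BMP2 and BMP7 lowest, and the points of INHBA and GREM1 for WT replicate 2 stand above the others at 11442 and 26619.

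BMP7 aside, the libraries of both groups did not overlap for 13 of the 43. In 4 genes both G34W libraries were above both WT libraries, where 11.6% of all genes were, and in 9 both were below, where 14.7% were. The 4 above were the ligand subunit INHBB, the receptors BMPR1A and ACVR2A and the transducer SMAD1; the ligand BMP7 was above too, but reached the minimum mean only through G34W replicate 1. The 9 below were GDF5, GDF6, FSTL3, GREM1, LTBP1, LTBP2, TGFBR1, SMAD2 and ID2. Neither count marks out the list. In what follows, a left-out range is the lowest and highest difference between G34W and WT when each library was left out in turn. With 2 libraries against 2, an exact two-sided permutation test of a single gene cannot go below p = 0.333.

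**Figure D2:**
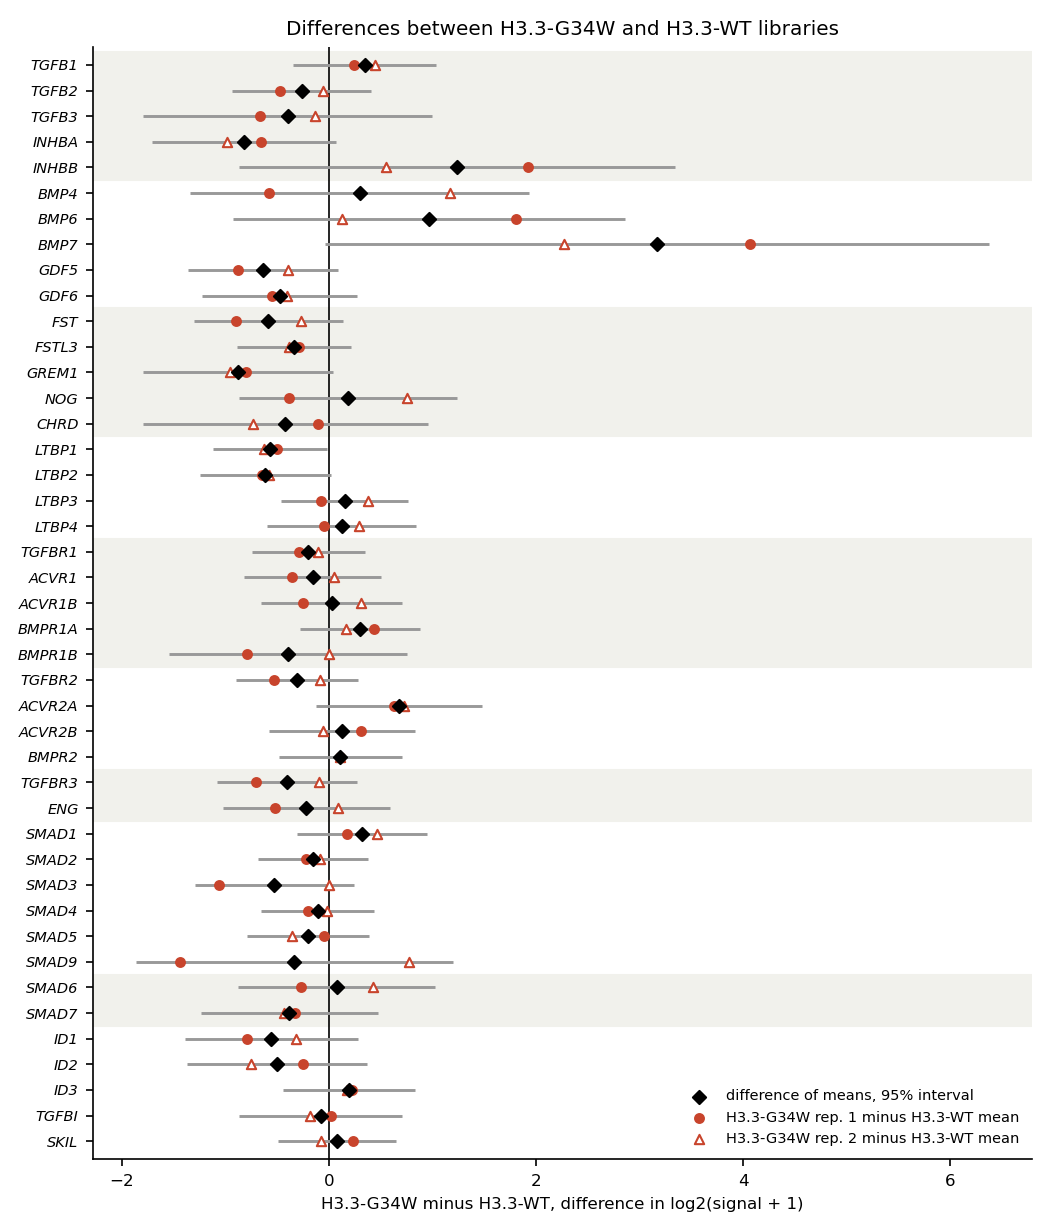
Difference between G34W and WT in log2(signal + 1) for the 43 genes tested, with each role shaded in turn. Diamonds are the difference of the group means with the 95% interval of the limma fit, and red symbols are each G34W library minus the WT mean; the interval lies below 0 for LTBP1 alone, from -1.11 to -0.02, before any adjustment for the number of genes.

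Among the TGF-β and activin ligands, INHBA was the most abundant by signal. It encodes the activin A subunit, and read 5632, 4613, 11442, 4615 and 3675. WT replicate 2 was 2.03-fold above the next library, whereas WT replicate 1 and G34W replicate 1 were almost level. The difference between G34W and WT was -0.82 (SE 0.39) on the log2 scale, -1.47 without WT replicate 1 and -0.16 without WT replicate 2. INHBB, the subunit of activin B, was low throughout, at 44.99, 9.996, 14.6, 48.6 and 18.2. Both G34W libraries exceeded both WT libraries, by 1.24 (SE 0.93), but EV was nearly as high as G34W replicate 1, and the difference was 0.55 without that replicate. The TGF-β genes themselves overlapped between the groups. TGFB1 read 1602, 1003, 1625, 1513 and 1742, with WT replicate 1 the low library. TGFB2 read 1613, 1198, 928, 760 and 1018, highest in EV. TGFB3 read 124, 61.6, 169, 63.9 and 93.2, and its 2 WT libraries spanned all the others.

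The promoter of INHBA is shown because this gene was among those highest in WT replicate 2. Promoters here are the 250 bases before a RefSeq transcription start on GRCh38.p14, written 5′ to 3′ on the gene's strand, and 40 of the 44 genes had at least 1 such window; BMP2, BMP7, GDF6 and NOG had none in the table. Capitals mark CAGAC or its reverse complement GTCTG, letters that SMAD3 and SMAD4 bind, and GGCGCC, a palindrome that SMAD1 and SMAD5 bind; the motifs can share at most 1 base. CAGAC or GTCTG occurred in 38% of all 35116 windows and in 26 of the 72 windows of these genes (36.1%), and GGCGCC in 16.4% of all and 19 of the 72 (26.4%). A match is a description of the letters and not a site of binding. The window of INHBA, chr7:41703091-41703340 on the minus strand, holds neither motif, which says only that these letters are not in it.
INHBA: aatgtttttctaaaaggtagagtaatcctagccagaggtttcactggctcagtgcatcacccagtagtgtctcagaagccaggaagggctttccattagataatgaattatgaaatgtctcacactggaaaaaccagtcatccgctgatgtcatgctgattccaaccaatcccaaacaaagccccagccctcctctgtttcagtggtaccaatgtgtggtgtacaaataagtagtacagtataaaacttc

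Among the BMP and GDF ligands, signal was highest for GDF5 and GDF6, growth factors of joint and skeletal patterning. GDF5 read 1024, 677, 879, 420 and 586. Both G34W libraries were below both WT libraries, with a difference of -0.64 (SE 0.32, left-out range -0.87 to -0.40), and EV was above all of them. GDF6 read 999, 486, 374, 291 and 322. EV was 2.06-fold above the next library, and both G34W libraries were below both WT libraries, at -0.48 (SE 0.33, left-out range -0.66 to -0.29). BMP7, an osteogenic BMP, read 4.46, 7.58, 0.82, 65.2 and 18.1. Both G34W libraries exceeded the other 3, and replicate 1 was 3.61-fold above replicate 2. Without replicate 1 the mean of BMP7 was under 10, so it was tested only through the library where it is high and no difference is read from the fit. BMP6, another osteogenic BMP, read 43.1, 31.1, 18.9, 87.5 and 26.7, so that G34W replicate 1 alone stood out; the difference was 0.97 (SE 0.84) and 0.13 without that replicate. BMP4 ranged from 43.6 to 150 with overlapping groups. At such low signal a fold change on the log2(signal + 1) scale understates the ratio of the values.
GDF5, chr20:35454750-35454999, minus strand, with CAGAC 34 bases before the start: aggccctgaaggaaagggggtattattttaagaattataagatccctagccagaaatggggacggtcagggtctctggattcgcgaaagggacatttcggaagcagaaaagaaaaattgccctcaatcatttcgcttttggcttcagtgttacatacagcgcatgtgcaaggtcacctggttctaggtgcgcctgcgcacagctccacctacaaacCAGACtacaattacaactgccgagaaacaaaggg

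Of the secreted antagonists, GREM1 had the highest signal. Its product, gremlin 1, binds BMP2, BMP4 and BMP7, and the gene read 11056, 10164, 26619, 9451 and 8473. WT replicate 2 was 2.41-fold above the next library, EV. The G34W libraries were the lowest pair, but by little against WT replicate 1: the difference was -0.88 (SE 0.40) with both WT libraries, -1.57 without WT replicate 1 and -0.18 without WT replicate 2. FSTL3, an activin-binding follistatin relative, read 3968, 3370, 4016, 3013 and 2824. Both G34W libraries were the lowest, at -0.33 (SE 0.24, left-out range -0.46 to -0.21). FST, follistatin itself, read 3004, 2531, 1681, 1105 and 1715 and the groups overlapped. The BMP antagonists NOG and CHRD overlapped too, with ranges of 227 to 500 and 48.0 to 102. The first of 2 windows of GREM1, chr15:32717754-32718003 on the plus strand, holds CAGAC 196 bases and GTCTG 99 bases before the start, and GGCGCC 83 and 52 bases before it, in a sequence of 76.8% G and C.
GREM1: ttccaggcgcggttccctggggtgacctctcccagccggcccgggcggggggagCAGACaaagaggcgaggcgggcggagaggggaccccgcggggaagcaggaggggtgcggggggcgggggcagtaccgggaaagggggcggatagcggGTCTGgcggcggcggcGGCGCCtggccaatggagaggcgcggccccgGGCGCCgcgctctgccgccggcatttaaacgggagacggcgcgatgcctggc

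Of the latent TGF-β binding proteins, LTBP1, which tethers latent TGF-β to fibrillin and fibronectin, read 6041, 5965, 7285, 4648 and 4275. Both G34W libraries lay below the other 3, and the difference from WT was -0.56 (SE 0.24, 95% interval -1.11 to -0.02). The unadjusted p was 0.0451, the lowest of the 43 in this comparison, and the adjusted p in limma was 1. The left-out range was -0.71 to -0.42, and that p was 0.0648 to 0.269 without any of the G34W or WT libraries, 0.102 without a variance trend and 0.893 with EV replicate 1 kept, but 0.0184 with the replicate block, 0.0352 without a filter and 0.0367 after rescaling. LTBP2, a member that does not bind latent TGF-β, read 2123, 2315, 3483, 1813 and 1901. Its G34W libraries were again the lowest, at -0.61 (SE 0.28, left-out range -0.91 to -0.32). LTBP3, at 2360, 1486, 1659, 1487 and 2045, and LTBP4, at 1253, 825, 1314, 1006 and 1277, overlapped between the groups. The first LTBP1 window, chr2:32946703-32946952 on the plus strand, holds GTCTG 85 and 61 bases before the start and no GGCGCC.
LTBP1: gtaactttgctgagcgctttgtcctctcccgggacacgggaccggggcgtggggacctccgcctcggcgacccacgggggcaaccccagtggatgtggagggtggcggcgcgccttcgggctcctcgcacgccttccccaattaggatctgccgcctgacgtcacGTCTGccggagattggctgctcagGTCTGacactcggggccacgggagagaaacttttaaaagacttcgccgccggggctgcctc

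Among the receptors, TGFBR1, the type I receptor for TGF-β, read 4193, 4761, 4270, 3687 and 4194, and TGFBR2, its type II partner, read 5722, 5499, 6613, 4183 and 5690. In both, G34W replicate 1 was the lowest library and replicate 2 lay beside EV; the differences were -0.20 (SE 0.24) and -0.31 (SE 0.26), with left-out ranges of -0.29 to -0.10 and -0.53 to -0.08. ACVR2A, a type II receptor for activins and BMPs, read 317, 229, 294, 401 and 428. Both G34W libraries were above the other 3, at 0.67 (SE 0.35), and the value stayed between 0.49 and 0.86 when each library was left out. BMPR1A, a type I receptor for BMPs, read 2651, 2606, 2162, 3214 and 2667, which put both G34W libraries above both WT libraries by 0.30 (SE 0.25, left-out range 0.17 to 0.44), with EV close to replicate 2 of G34W. TGFBR3, the co-receptor betaglycan, read 2838, 3426, 2488, 1794 and 2725, lowest in G34W replicate 1. The other receptors, ACVR1, ACVR1B, BMPR1B, ACVR2B, BMPR2 and the co-receptor ENG, overlapped, with differences from -0.39 (BMPR1B) to 0.13 (ACVR2B). For each of them the sign turned when a single library was left out. Without G34W replicate 1, BMPR1B was at 0.0019 and ACVR2B at -0.05.

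Among the receptor-regulated and common SMADs, SMAD2, which carries TGF-β and activin signals, had the highest signal, at 6586, 7172, 7812, 6411 and 7063. The libraries lay within a narrow band, with a difference of -0.15 (SE 0.24, left-out range -0.22 to -0.08). SMAD3, the other TGF-β transducer, read 6009, 5349, 5407, 2586 and 5389. G34W replicate 1 was 2.07-fold below the next library and replicate 2 sat between both WT libraries. The difference of -0.53 (SE 0.34) thus rested on replicate 1, and was 0.00 without it. SMAD9, a BMP transducer, behaved likewise at a lower level, with 230, 192, 144, 60.6 and 284. G34W held both its lowest and its highest library, and the difference turned from -0.33 (SE 0.68) to 0.77 without replicate 1. At least 2-fold below each other library in replicate 1 were 2% of all genes. SMAD1, a BMP transducer as well, read 1143, 983, 893, 1057 and 1295, with both G34W libraries above both WT libraries by 0.32 (SE 0.28, left-out range 0.17 to 0.47). SMAD4, the common partner, and SMAD5 overlapped, with ranges of 2824 to 3337 and 4611 to 6779.

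The inhibitory SMADs and the direct targets lie downstream of the pathway, whose activity was not measured here. SMAD7, an inhibitor induced by TGF-β, read 1643, 1004, 2280, 1206 and 1117. Its highest and lowest libraries were both WT, and the difference turned from -0.38 (SE 0.38) to 0.21 without WT replicate 2. SMAD6, an inhibitor of the BMP branch, ranged from 162 to 332 with EV highest. TGFBI, a matrix protein named for its induction by TGF-β, read 26331, 21962, 43945, 31511 and 27456. G34W lay between the WT libraries, and the difference was -0.08 (SE 0.35), 0.42 without WT replicate 2 and 0.02 without G34W replicate 2. ID1, a helix-loop-helix inhibitor and target of BMP SMADs, read 1183, 1155, 2330, 946 and 1321, with WT replicate 2 apart from the rest. ID2 read 283, 301, 397, 291 and 206, so both G34W libraries were under both WT libraries, at -0.50 (SE 0.38, left-out range -0.75 to -0.25), while EV lay below G34W replicate 1. ID3 and SKIL, a repressor of SMADs, overlapped at 1183 to 1692 and 2230 to 3313. The window of TGFBI, chr5:136028738-136028987 on the plus strand, holds GGCGCC 111 bases before the start and neither CAGAC nor GTCTG.
TGFBI: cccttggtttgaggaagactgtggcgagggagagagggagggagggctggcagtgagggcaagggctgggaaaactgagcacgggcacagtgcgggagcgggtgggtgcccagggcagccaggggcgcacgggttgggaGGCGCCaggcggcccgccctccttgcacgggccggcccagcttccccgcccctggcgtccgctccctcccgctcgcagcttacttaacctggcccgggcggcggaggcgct

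Levels were set beside each other per kilobase of the canonical transcript. On this scale TGFBI was the highest of the 44, with 9709, 8098, 16200, 11620 and 10120 per kb. ID3 followed with a mean of 1562 per kb (SD 239 over the 5 libraries), ID1 with 1411 (SD 554), FSTL3 with 1375 (SD 217), TGFBR2 with 1223 (SD 193) and INHBA with 992 (SD 516); from ID3 on, the ranges of neighbours in this order overlapped. BMP2 had the lowest mean, 1.73 per kb. By mean per kb SMAD2, at 202.4, lay above SMAD9 but below SMAD5 at 800.6, SMAD3 at 765.5, SMAD1 at 357.8 and SMAD4 at 353.5. Among the secreted antagonists, GREM1, at 902.4, lay below FSTL3. The order depends on which transcript is used: the canonical transcript of SMAD2 is 34.6 kb long and that of GREM1 14.6 kb, so a shorter isoform would move both up.

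Both comparisons with EV share its single library, assumed to vary like the other groups, so their values are given side by side. With limma, no gene of the 43 and none of all genes (0% in each) had an adjusted p under 0.05. At an unadjusted p under 0.05, WT against EV gave 1 of the 43, GDF6, and 157 of all genes (0.966%); G34W against EV gave 4 of the 43 and 317 of all genes (1.95%). The latter count fell without G34W replicate 1 and rose without G34W replicate 2, over the 43 and over all genes alike. The 4 were the ligands GDF6, GDF5 and TGFB2 and the antagonist FST, and each was lower in G34W. For GDF6 the difference was -1.23 in WT and -1.70 in G34W (SE 0.41 for each). For GDF5 the same values were -0.41 and -1.04 (SE 0.39 for each). FST gave -0.54 and -1.13 (SE 0.39 for each), and TGFB2 -0.61 and -0.87 (SE 0.36 for each). In these 4 genes EV was the highest library of all. EV was above all 4 H3.3 libraries for 9 of the 43, where 14.1% of all genes were, and below all 4 for SKIL alone, where 15.2% were. Medians over the 43 were -0.14 and -0.21, and over all genes 0.02 and -0.03.

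WT replicate 2 held the highest value for 17 of the 43 genes, where it did for 30.8% of all genes, and G34W replicate 1 the lowest for 20, where it did for 40%. It was at least 2-fold above WT replicate 1 for 6 of them, where 7.13% of all genes were: the ligands TGFB3 (2.74-fold) and INHBA (2.48-fold), the antagonist GREM1 (2.62-fold), the inhibitor SMAD7 (2.27-fold) and the targets ID1 (2.02-fold) and TGFBI (2.001-fold). The same held for 5 of the 33 tested genes of a list of 38 known TGF-β and BMP targets. ANGPTL4 read 315, 91.2, 1092, 165 and 234. HAS2, a hyaluronan synthase, read 1411, 1254, 4090, 1310 and 1460. In both, WT replicate 2 was the highest library and replicate 1 the lowest. TAGLN, SNAI2 and ATOH8 made up the 5, at 2.81-, 2.45- and 2.52-fold. Over the 22 tested TGF-β targets the median difference between these replicates was 0.45 on the log2 scale, over the 11 BMP targets 0.15, over the 43 genes 0.27 and over all genes 0.11. THBS1, a matrix protein that can activate latent TGF-β, read 114453, 59895, 255665, 86236 and 87132, again with WT replicate 2 apart. It was picked from the list of other pathway genes described below. Over the tested genes of that list the same median was 0.10. What sets this library apart was not tested, and it compares 1 library with 1.

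**Figure D3:**
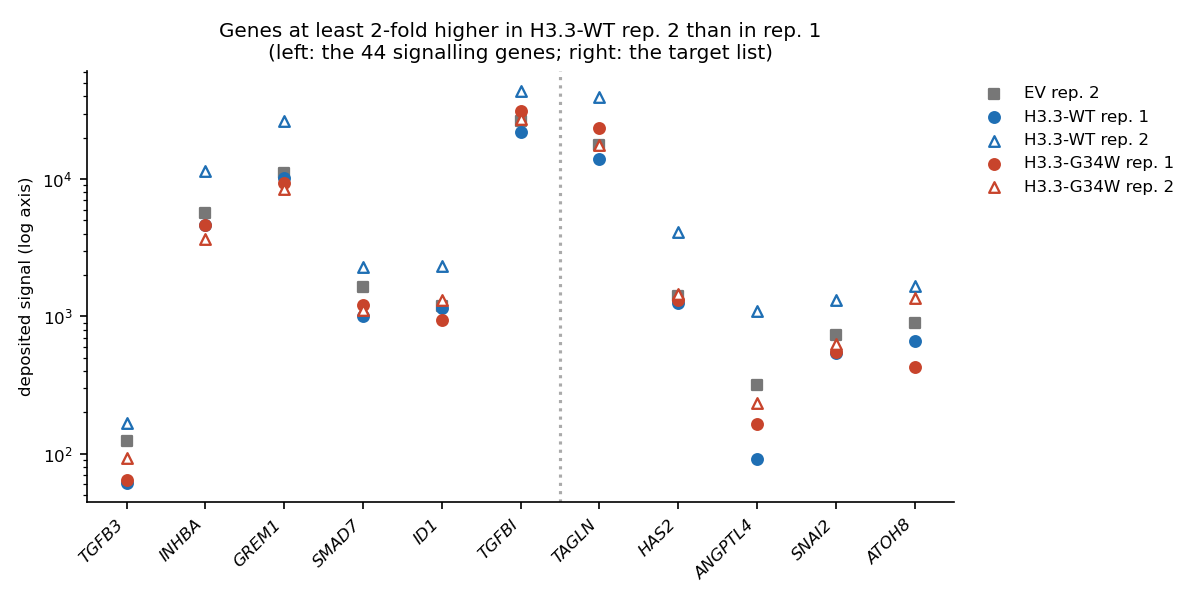
Signal in each of 5 libraries, on a log axis, for the genes at least 2-fold higher in WT replicate 2 than in replicate 1; the 6 of the 44 genes are on the left and the 5 of the target list on the right. The open blue triangle is the highest point of every gene, and WT replicate 1 lies at or near the bottom of most.

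None of the 33 tested target genes had an adjusted p under 0.05 between G34W and WT in limma, and none (0) had an unadjusted p under 0.05. Their median difference was -0.20, with 9 higher and 24 lower in G34W. Against the WT mean the median was -0.38 in G34W replicate 1 and -0.11 in replicate 2. When each library was left out in turn, the sign turned for 24 of the 33, so the split depends on single libraries. How often the sign turned over all genes was not computed. Such counts, here and for the next list, are therefore not read as a trait of a list. A second list held 82 other genes of the pathway by known role, of which 66 were tested, 7 of them only through their highest library. The sign between G34W and WT turned for 39 of these 66 when each library was left out. Again 0 passed the adjusted threshold. At an unadjusted p under 0.05 there were 6, 4 higher and 2 lower in G34W; 1 of the higher, FOXH1, was tested only through G34W replicate 1, so the count is not set beside that of all genes. This count changed when single libraries of either group were left out. It was largest without G34W replicate 2, and so was the count over all genes. The 2 lower were matrix genes. FBN1, fibrillin 1, to whose microfibrils latent complexes are anchored, read 25503, 22981, 22086, 14512 and 13263, a difference of -0.70 (SE 0.24). DCN, the TGF-β-binding proteoglycan decorin, read 449, 506, 397, 201 and 298, at -0.87 (SE 0.37, left-out range -1.15 to -0.59). For both, the G34W libraries were under the other 3. INHBE, an activin subunit, read 267, 191, 97.9, 362 and 366, and was above the other 3 in both G34W libraries, at 1.41 (SE 0.44, left-out range 0.93 to 1.885). PCSK6, a proprotein convertase, read 15.5, 38.2, 6.495, 160 and 57.6, and RGMA and FOXH1 were the others. These 6 were singled out after their values were seen.

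RGMA and FOXH1 belong to a set of pathway genes that stood out in G34W replicate 1, at least 4-fold above each other library. FOXH1, LEFTY1, GDF3 and VWC2 reached the minimum mean only through that library, so no count is set beside all genes. TDGF1 (Cripto), the co-receptor for NODAL, read 45.4, 20.3, 34.7, 10409 and 12.0. FOXH1, the SMAD partner in NODAL signalling, read 4.93, 0, 1.91, 610 and 6.35. LEFTY1, a NODAL antagonist, read 0, 2.78, 0, 127 and 2.27. All 3 were high in that library and near 0 or low elsewhere. GDF3, a related ligand, read 82.4 there and was listed at 0 in the other 4 libraries, and the antagonist VWC2 read 42.5 against 2.91 to 4.998. RGMA, a BMP co-receptor, read 33.8, 16.01, 57.3, 363 and 88.5. NODAL and CER1 were named after their values were seen. NODAL read 118 against 9.16 to 33.6, which is under 4-fold. CER1, a NODAL antagonist, read 41.5 against 0, but its mean of 8.29 was under the minimum. Not all genes of this branch did so: LEFTY2 read 23.2 there and 14.7 in WT replicate 1, DAND5, a NODAL antagonist, was lowest there at 2.13, and CFC1, a co-receptor, and GDF1, a ligand, were listed at 0 there. TDGF1, LEFTY1, POU5F1 and NANOG have close paralogues or processed copies, so the authors' counting may have split their reads. Among the 44 genes themselves none reached 4-fold in that library (3.58% of all genes); BMP7 aside, BMP6 alone was at least 2-fold above each other library there (6.05% of all genes), and SMAD3 and SMAD9 at least 2-fold below. The pluripotency markers moved with these genes: besides POU5F1, DNMT3B read 13081 against 395 to 541 and LIN28A 5765 against 34.9 to 44.9. Their part in the result was not tested. EPCAM and CDH1, of 5 epithelial markers, were also high there, at 2175 against 9.97 to 46.6 and 2104 against 39.9 to 64.9. Over the whole epithelial list the sum was 41667 there against 35817 to 46726 elsewhere. The sums of 8 neural and 6 myeloid markers were lowest there, at 10452 against 13983 to 21904 and 1079 against 1182 to 1432, and that of 5 endothelial markers was highest, at 2324 against 876 to 2150. At least 2-fold above each other library there were 3 of the neural markers, 1 of the endothelial, 1 of the osteoblast and 0 of the myeloid. NES, CD68, KRT18 and TEK were the most abundant of these lists, and the myeloid TYROBP was listed at 0 in all 5 libraries.

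**Figure D4:**
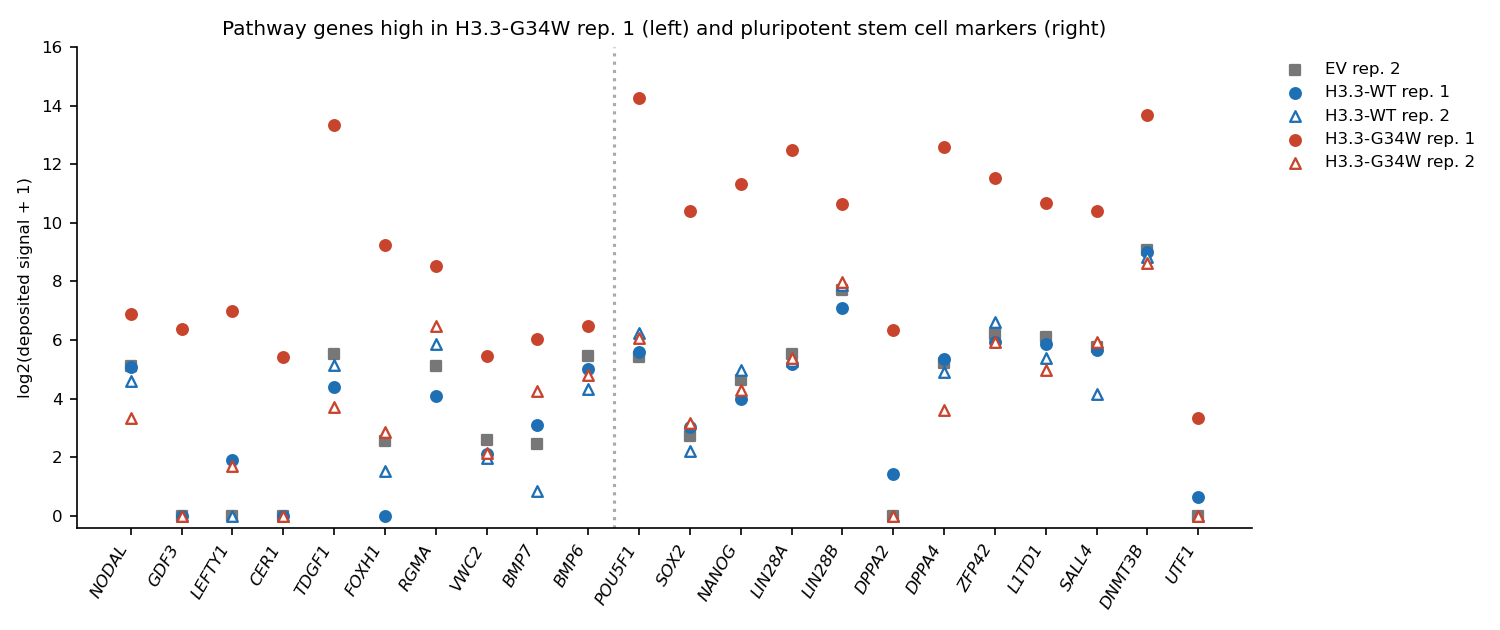
log2(deposited signal + 1) in each of 5 libraries for NODAL-branch and BMP genes high in G34W replicate 1 (left) and for 12 pluripotent stem cell markers (right). The filled red circle is the highest point of every gene, at 10409 for TDGF1 and 19441 for POU5F1, while G34W replicate 2 lies among the other libraries for most of them.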

How the data were processed

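RNA was measured in 6 libraries of hFOB 1.19. Per the study's methods and the submitters' processing notes, the authors quantified transcripts with kallisto on Ensembl GRCh38 models (release 99), summed them per gene and normalised them with DESeq2; versions of these tools are not given in the sources used here. The deposited unit is this normalised signal, which is not a count: many low values are multiples of a small step, but only 50.8% to 59.2% of them are whole multiples (tolerance 0.01), so whole reads were not recovered and depth is unknown. The count test foreseen for whole numbers was therefore not run.

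With limma 3.58.1 under R 4.3.3, log2(signal + 1) of 5 libraries was fitted on 3 groups without covariates, with a variance trend, 2 residual and 7.02 prior degrees of freedom and Benjamini-Hochberg adjustment over 16259 genes with a mean of at least 10. SE and 95% intervals are those of the fit. The scripts were tested on simulated data. The genes and lists were chosen with earlier results of these data known, so no list-wise test was made. A withheld gene was taken off the target list after the values were seen and is not reported here.

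Of the 44 genes, values in every library are given for a gene with an adjusted p under 0.05, for non-overlapping groups with a log2 difference of at least 0.5, for 1 library 2-fold from each other, or for the highest mean of a role; others given in full were chosen after their values were seen. Of the other lists, genes past the threshold or 4-fold above each other library are named, with the markers; further ones were also chosen after their values were seen. Transcript lengths are from GENCODE, promoters and positions from RefSeq (GRCh38.p14). Alternatives were another pseudocount, other filters, no trend, EV replicate 1 kept, 4 libraries, rescaling, a replicate block and leaving out each library. Plots were drawn with matplotlib 3.10.9.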

Additional observations from a re-analysis of the deposited data

Results flagged for a closer look

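In the column left out of the comparisons, EV replicate 1, 10 of the 44 genes had a value above 0. For 3 of them it was above every library used, which is why they are given here: the latent binding protein LTBP3 read 63335 (26.8-fold EV replicate 2), and the type I receptors ACVR1B and BMPR1A read 35900 (18.6-fold) and 61410 (23.2-fold). These genes lie on chromosomes 11, 12 and 10. The other 7 read 6.96 to 101, and only CHRD, at 77.8 against 58.5, was above EV replicate 2. The sum of the column was 157595150.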

How the results depend on the processing

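No gene of the 44 had an adjusted p under 0.05 in limma in any of the 3 comparisons under any alternative. Over all genes, the count of 0 became 1 with a pseudocount of 0.1 for WT against EV and for G34W against EV. Leaving out each library in turn gave 0 to 6 genes for G34W against WT (6 without WT replicate 1), 0 to 4 for WT against EV and 0 to 1 for G34W against EV; neither EV comparison gives a value without EV replicate 2. Where a group is left with 1 library, it is assumed to vary like the others. The sign of the difference between G34W and WT turned for 19 of the 43 when each library was left out, a check widened to all 43 after the values were seen; among those that the rules for full values picked, it turned for SMAD3 (-1.06 to 0.00303, the latter without G34W replicate 1), SMAD9 (-1.44 to 0.77, likewise), SMAD7 (-0.97 to 0.21, without WT replicate 2) and TGFBI (-0.58 to 0.42, without WT replicate 2, and 0.02 without G34W replicate 2); the cause was not tested. How often the sign turned over all genes was not computed, so the 19 are not read as a trait of the 43. The median over those of the 44 tested was -0.14 after rescaling, beside 0.01 for all genes, and -0.29 to -0.05 leaving out each library. Replicate numbers pair libraries in name only: same-numbered deviations correlated at 0.0945 across genes, and with the replicate block the calls between G34W and WT stayed at 0, with 715 genes and 5 of the 44 at an unadjusted p under 0.05. In the main limma fit, unadjusted p-values under 0.05 between G34W and WT numbered 1 of the 43 and 439 of all genes. They numbered 6 of the pathway list, FOXH1 included, and 0 of the target list. Without a variance trend they numbered 1 of the 43, 486 of all genes, and 2 each of the pathway and target lists. That 1 was no longer LTBP1 but BMP7, tested only through G34W replicate 1 and so not read. For WT against EV they numbered 1 of the 43 and 157 of all genes, and for G34W against EV 4 and 317. Without a trend these were 1 and 377 for WT against EV, and 1 and 446 for G34W against EV. These counts changed when single libraries were left out, and so did those over all genes. With EV replicate 1 kept, G34W against WT gave 0 calls and 13 genes at that unadjusted p. With a minimum mean of 50, INHBB, BMP6 and BMP7 had no value, nor had BMP7 without G34W replicate 1. An unknown depth limits what can be said of low genes such as BMP7 and INHBB.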

Other observations

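Inside the cell, SMAD signalling is trimmed by ubiquitin ligases, deubiquitinases and co-regulators. A class of intracellular regulators held such genes and others of the pathway, and 23 were tested, FOXH1 only through G34W replicate 1. Both G34W libraries lay below both WT libraries for 8 of them (14.7% of all genes) and above both for FOXH1. Over the whole pathway list of 66 tested genes, 13 were below, where 14.7% of all genes were, and 6 above, where 11.6% were. The 6 include FOXH1 and VWC2, both tested only through G34W replicate 1, so that count is not read. The class was picked out from this list. The 8 were SMURF1, SMURF2, NEDD4L, USP15, USP9X, TRIM33, CREBBP and TAB1, with differences from -0.27 (USP9X) to -0.68 (NEDD4L). Without G34W replicate 1 NEDD4L was at -0.31, CREBBP at -0.17 and TAB1 at -0.02, without WT replicate 2 SMURF1 and USP15 were at -0.17 each, and without WT replicate 1 USP9X was at -0.17. NEDD4L, a ubiquitin ligase for activated SMAD2 and SMAD3, read 4543, 4038, 5277, 2213 and 3732 in the order EV, WT, G34W. SMURF2, a ligase that acts on SMADs and receptors, read 4710, 5293, 6348, 4327 and 4209. In limma none of the 23 had an adjusted p under 0.05. FBN2, fibrillin 2, was lower in both G34W libraries as FBN1 was, at 6820, 6429, 5602, 3798 and 4611, a difference of -0.52 (SE 0.25). These genes were picked out after their values were seen.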
